A study of Mus musculus with 12 samples.

Results

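Markers of immature and non-myelinating Schwann cells were followed in bulk RNA of mouse sciatic nerve. The set holds 9 genes chosen by symbol, Ncam1, L1cam, Gfap, Nes, Vim, Cdh2, Cdh19, S100b and Scn7a, out of 38087 gene models in the deposited count table. All 9 were found and all 9 passed the filter on low counts, as did 22384 models in all. The rule used no measured value of the table. Libraries came from 4 groups of 3 biological replicates each. The Tfeb/3 SC-dKO mice (dKO below) were Dhh-Cre+:Tfebflox/flox;Tfe3KO, and the control mice were Dhh-Cre-:Tfebflox/flox;Tfe3+. Nerves were taken from dKO mice at 5 days after transection (the distal segment), from control mice at 5 days, from intact dKO nerve and from intact control nerve. Floxed Tfeb alleles were carried by all 4 groups. Expression of Cre from Dhh confined the Tfeb deletion to Schwann cells, whereas the Tfe3 knockout was global, so that other cells of dKO nerve also lacked Tfe3. Intact nerves were contralateral ones. About 1 mm was removed at the injury site, and the epineurium was stripped from intact nerves only, so injury cannot be told apart from that difference in dissection. The age of the animals is not given in the sources used here.

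Schwann cells pass through an immature stage before they sort axons. Those around large axons then form myelin, and those that hold bundles of thin axons remain non-myelinating (Remak cells) and keep several molecules of the immature stage. After nerve injury, myelinating cells lose their myelin genes and take up a repair state in which part of the immature set is expressed again. The 9 genes encode adhesion molecules of the immunoglobulin family (Ncam1, L1cam), cadherins (Cdh2, Cdh19), intermediate filament proteins (Vim, Nes, Gfap), a calcium-binding protein (S100b) and a sodium channel (Scn7a). TFEB and TFE3 are related transcription factors known for switching on genes of lysosomes and autophagy. In whole nerve, fewer cells of a type and less RNA per cell cannot be told apart.

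The libraries held 15430999 to 35845371 counts. Tfeb stood at 14.2 to 29.7 CPM (counts scaled to the size of the library) in dKO libraries and at 18.2 to 26.9 CPM in control libraries, and Tfe3 at 43.3 to 53.8 CPM in dKO libraries and at 54.9 to 67.6 CPM in control libraries. Neither passed the test between genotypes, and whole-gene counts do not separate deleted from kept exons. All 3 dKO libraries at 5 days and replicate 4 of the control libraries at 5 days had reads on 174 to 384 olfactory receptor genes at equal depth, against 51 to 78 in the other 8. These 4 libraries are called the second library set below. All injured dKO libraries lie in that set and all intact dKO libraries outside it, so injury in dKO nerve cannot be told apart from the set. A model term for the set takes its size only from the control libraries at 5 days, of which 1 is in the set. Control replicate 1 at 5 days carried 10712 Xist counts, against 0 to 23 in the others. It had 244 counts on Y-linked genes, against 1907 to 3724 in the others, so its sex-linked counts set it apart. Intact dKO replicate 4 and intact control replicate 2 each held the highest value of their group for 8 of the 9 genes. Intact control replicate 2 had a fat cell marker sum of 52.3 CPM against 304 to 525 CPM in the other intact control libraries.

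A gene was called where its adjusted p was under 0.05 in edgeR's quasi-likelihood test over all gene models. Most of the 9 genes were called between 5 days and intact nerve in both genotypes, mostly lower. In dKO nerve, 8 of 9 were called between 5 days and intact nerve, 2 higher and 6 lower, where 44.7% of all gene models were called (22% higher and 22.6% lower). The split was 1 higher and 6 lower with RLE factors, and 2 higher and 4 lower with upper-quartile factors. Leaving out 1 library gave 4 to 8 calls in dKO nerve, and a library set term gave 5. In control nerve, 6 of 9 were called, 2 higher and 4 lower, where 46.8% of all gene models were called (24.4% higher and 22.4% lower). With only 9 genes, that count is not read as a result about the set. At 5 days, 4 of 9 differed between dKO and control nerve, all 4 lower in dKO, where 12.1% of all gene models were called (3.12% higher and 8.97% lower). In intact nerve, none of the 9 differed between genotypes by edgeR, and none did by DESeq2 or limma-voom. The dKO and control libraries, or the injured and intact ones, did not overlap for 8 genes after injury in dKO nerve (61% of all models), 5 after injury in control nerve (53.3%) and 6 between genotypes at 5 days (30.5%). The median log2 change of the 9 was -0.72 in dKO nerve after injury (0.05 over all models), -0.56 in control nerve (0.09), and -0.28 between genotypes at 5 days (-0.02). The comparisons share libraries, so their values below are set side by side and not counted as separate evidence.

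**Figure D1:**
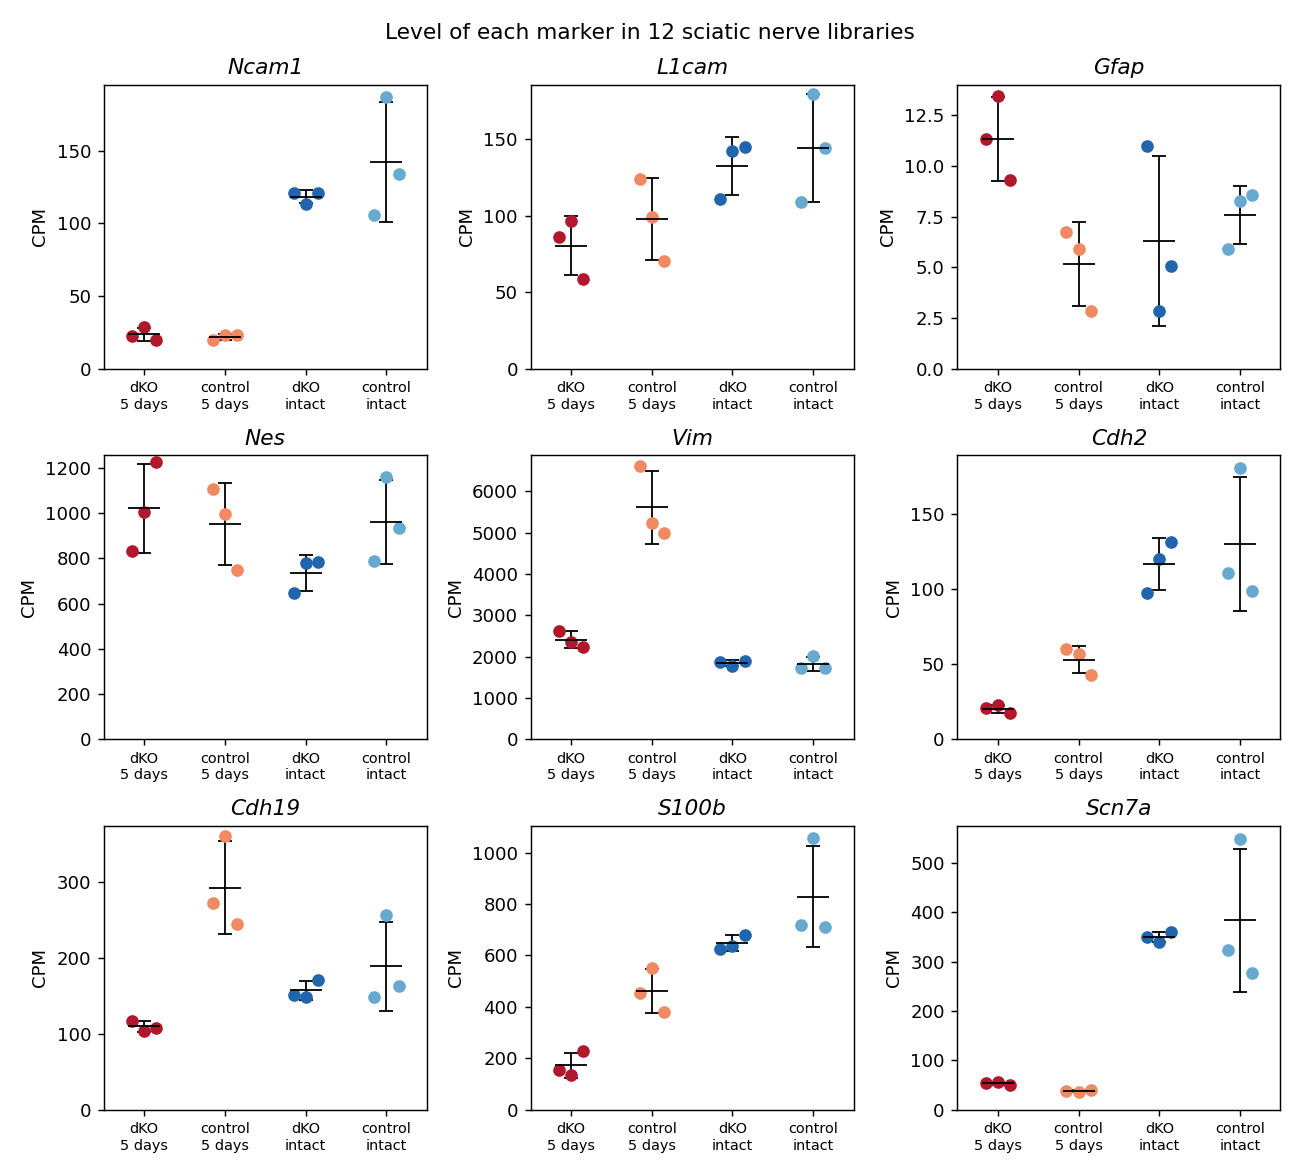
Level of each of the 9 genes in CPM (vertical axes, from 0) in 12 libraries, with dKO and control nerve at 5 days left of intact dKO and intact control nerve; dots are libraries and bars the mean and SD (n = 3). Vim stands highest in control nerve at 5 days (4986 to 6618 CPM), and Ncam1 and Scn7a are low in both genotypes after injury.

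Ncam1, which encodes the neural cell adhesion molecule, fell in both genotypes. It had 22.7, 28.9 and 20.04 CPM in dKO nerve at 5 days, against 121, 114 and 121 CPM in intact dKO nerve. Control nerve at 5 days had 19.7, 23.1 and 23.2 CPM, against 106, 187 and 134 CPM in intact control nerve. Every injured library lay below every intact one in both genotypes. The log2 change was -2.31 ± 0.19 (SE) in dKO nerve (edgeR adjusted p = 3.42e-07) and -2.69 ± 0.19 in control nerve (edgeR adjusted p = 5.69e-08). Between genotypes at 5 days the libraries overlapped, with a log2 difference of 0.12 ± 0.18 (edgeR adjusted p = 0.701). Ncam1 lies at chr9:49502136-49798925 (-, GRCm38) and shares 417 exon bases with the antisense gene Gm11149, whose counts were 18.64 to 33.72% of those of Ncam1. Gm11149 moved by -2.70 in dKO nerve and by -3.25 in control nerve on the log2 scale. Whether the counting used strand is not given in the sources used here, so reads of the pair cannot be told apart.

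L1cam encodes the L1 adhesion molecule of axons and non-myelinating Schwann cells, and it lies at chrX:73853778-73896105 (-). Its levels were 85.9, 96.3 and 58.8 CPM in dKO nerve at 5 days, against 111, 142 and 145 CPM in intact dKO nerve. In control nerve they were 124, 99.1 and 70.4 CPM at 5 days, against 109, 179 and 144 CPM in intact nerve. The 124 CPM came from replicate 1, the library set apart by its Xist and Y-linked counts. Injured and intact libraries stood apart in dKO nerve and overlapped in control nerve. L1cam fell in dKO nerve by a log2 change of -0.72 ± 0.24 (edgeR adjusted p = 0.0301). That call was lost without dKO replicate 2 or 4 at 5 days or intact dKO replicate 3 or 4 (edgeR adjusted p = 0.0578 to 0.0965). It was also lost with upper-quartile factors (-0.58, edgeR adjusted p = 0.0677) and with no low-count filter (-0.76, edgeR adjusted p = 0.0560). With a term for the library set, the change in dKO nerve was -0.06 (edgeR adjusted p = 0.940). In control nerve the log2 change was -0.56 ± 0.24 (edgeR adjusted p = 0.0783), and it was called without control replicate 1 at 5 days, intact control replicate 1 or intact dKO replicate 2 (-0.77, -0.82 and -0.64). DESeq2 called it too (-0.61, DESeq2 adjusted p = 0.0281). L1cam shares 100 exon bases on the same strand with Arhgap4, whose counts were 15.35 to 105.1% of those of L1cam and which rose after injury (log2 change 0.83 in dKO nerve and 0.77 in control nerve).

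Cdh2 encodes N-cadherin, the calcium-dependent adhesion molecule between immature Schwann cells and between these and axons. It had 20.9, 22.6 and 17.4 CPM in dKO nerve at 5 days, against 97.9, 120.5 and 132 CPM in intact dKO nerve. Control nerve had 59.95, 57.0 and 42.7 CPM at 5 days, against 111, 181 and 98.7 CPM in intact nerve. Cdh2 fell in both genotypes with no overlap, and its 3 dKO libraries at 5 days were the lowest of all 12. The log2 change with injury was -2.52 ± 0.23 in dKO nerve (edgeR adjusted p = 1.70e-06) and -1.29 ± 0.21 in control nerve (edgeR adjusted p = 0.000281). At 5 days Cdh2 was lower in dKO than in control nerve by a log2 difference of -1.39 ± 0.22 (edgeR adjusted p = 0.00135), a level 2.61-fold higher in control nerve.

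Cdh19 encodes a classical cadherin found early in the Schwann cell lineage, and it moved in opposite directions after injury in the 2 genotypes. It had 118, 105 and 108 CPM in dKO nerve at 5 days, against 152, 149 and 172 CPM in intact dKO nerve. Control nerve had 273, 362 and 245 CPM at 5 days, against 148, 257 and 164 CPM in intact nerve. Cdh19 lies at chr1:110888326-110977584 (-). The dKO libraries stood apart, while in control nerve intact replicate 2 lay above the lowest injured library. The log2 change was -0.52 ± 0.19 in dKO nerve (edgeR adjusted p = 0.0375) and 0.63 ± 0.19 in control nerve (edgeR adjusted p = 0.0131). The fall in dKO nerve was not called without any 1 of the 6 dKO libraries (edgeR adjusted p = 0.0562 to 0.111) and was -0.14 with the library set term (edgeR adjusted p = 0.815). The rise in control nerve was not called without control replicate 2 at 5 days (0.45), intact control replicate 1 (0.38) or intact control replicate 3 (0.53). At 5 days Cdh19 was lower in dKO than in control nerve by -1.41 ± 0.19 on the log2 scale (edgeR adjusted p = 0.000313).

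Vim, which encodes vimentin, the intermediate filament protein of immature and mesenchymal cells, rose after injury and rose less in dKO nerve. It had 2629, 2350.1 and 2228 CPM in dKO nerve at 5 days, against 1874, 1770.0 and 1899 CPM in intact dKO nerve. Control nerve had 6618, 5230.0 and 4986 CPM at 5 days, against 1722, 2014 and 1714 CPM in intact nerve. Vim lies at chr2:13573927-13582826 (+). The groups did not overlap in either genotype, and each control library at 5 days lay above each dKO library. The log2 change with injury was 0.38 ± 0.12 in dKO nerve (edgeR adjusted p = 0.0224) and 1.63 ± 0.13 in control nerve (edgeR adjusted p = 1.03e-07), a 3.09-fold rise in control nerve. In dKO nerve the rise was not called without dKO replicate 2 at 5 days or without any 1 intact dKO library (edgeR adjusted p = 0.0595 to 0.0972), nor with the library set term (0.63, edgeR adjusted p = 0.0569). At 5 days Vim was lower in dKO than in control nerve by -1.22 ± 0.13 on the log2 scale (edgeR adjusted p = 2.84e-05). Vimentin is also made by fibroblasts, whose marker sum was 13453 to 15844 CPM in dKO nerve at 5 days and 7810 to 12351 CPM in control nerve at 5 days; the part of these cells in the Vim values was not tested.

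Nes encodes nestin, a filament protein of progenitor and immature glial cells, and lies at chr3:87971078-87980451 (+). It stood at 834, 1006 and 1226 CPM in dKO nerve at 5 days, against 645, 780.4 and 783 CPM in intact dKO nerve. Control nerve had 1105, 997 and 750.2 CPM at 5 days, against 787, 1158 and 936 CPM in intact nerve. The dKO groups stood apart, and the control groups overlapped. Nes rose in dKO nerve by a log2 change of 0.47 ± 0.18 (edgeR adjusted p = 0.0439), while in control nerve the value was -0.01 ± 0.18 (edgeR adjusted p = 0.957). The call in dKO nerve was lost without dKO replicate 3 or 4 at 5 days, control replicate 2 at 5 days, any 1 intact dKO library or intact control replicate 3 (edgeR adjusted p = 0.0619 to 0.205). It was also lost with RLE factors, no low-count filter and the replicate block (edgeR adjusted p = 0.0521, 0.0758 and 0.0930). With the authors' normalized values it was lost as well (limma adjusted p = 0.0613). With the library set term the log2 change was 0.96 (edgeR adjusted p = 0.0402). In all, Nes was called in 11 of 22 alternatives there. At 5 days the genotypes overlapped, with a log2 difference of 0.10 ± 0.18.

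Gfap, which encodes glial fibrillary acidic protein, a filament of non-myelinating Schwann cells, and lies at chr11:102887336-102900912 (-), was the lowest of the set per exon length in 3 of the 4 groups. Its raw counts were 376, 484 and 161 in dKO nerve at 5 days, 216, 188 and 69 in control nerve at 5 days, 287, 93 and 150 in intact dKO nerve, and 162, 200 and 244 in intact control nerve. In CPM these were 11.4, 13.4 and 9.30 in dKO nerve at 5 days, against 6.76, 5.91 and 2.83 in control nerve at 5 days. Intact dKO nerve had 10.98, 2.83 and 5.09 CPM, and intact control nerve 5.92, 8.26 and 8.57 CPM. The genotypes did not overlap at 5 days, whereas injured and intact libraries overlapped in both genotypes. The log2 difference between genotypes at 5 days was 1.13 ± 0.42 (edgeR adjusted p = 0.102). Gfap was called there without intact dKO replicate 2 (1.18, edgeR adjusted p = 0.0339), the library with the highest intact value, by DESeq2 (adjusted p = 0.0332) and in an edgeR fit of the compared groups alone (1.16, adjusted p = 0.0368). The injury values were 0.86 ± 0.42 in dKO nerve (edgeR adjusted p = 0.114) and -0.55 ± 0.42 in control nerve (edgeR adjusted p = 0.312). Without intact dKO replicate 2, Gfap rose in dKO nerve by 1.48 (edgeR adjusted p = 0.00679).

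S100b encodes a calcium-binding protein by which Schwann cells of every kind are recognised. It had 154, 136 and 228 CPM in dKO nerve at 5 days, against 625, 639 and 682 CPM in intact dKO nerve. Control nerve had 454, 550.1 and 381 CPM at 5 days, against 719.9, 1057 and 709.6 CPM in intact nerve. S100b fell in both genotypes without overlap, and the dKO libraries at 5 days lay below all others. The log2 change was -1.91 ± 0.21 in dKO nerve (edgeR adjusted p = 6.91e-06) and -0.84 ± 0.20 in control nerve (edgeR adjusted p = 0.00354). At 5 days S100b was lower in dKO than in control nerve by -1.42 ± 0.20 (edgeR adjusted p = 0.000589), a level 2.67-fold higher in control nerve.

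S100b lies at chr10:76253853-76261159 (+) and overlaps Dip2a on the opposite strand, with 0 shared exon bases in the annotation used here. The counts of Dip2a were nonetheless 115.2 to 135.1% of those of S100b in dKO nerve at 5 days and 99.81 to 102.9% in control nerve at 5 days. In intact nerve they were 101.5 to 103.5% in dKO and 97.73 to 102.2% in control libraries. Dip2a was also lower in dKO nerve at 5 days (log2 difference -1.11 ± 0.18, edgeR adjusted p = 0.00100). The pair was near equality in 9 libraries, and in the 3 dKO libraries at 5 days Dip2a had more counts than S100b. Whether the same reads were counted for both genes cannot be told apart here.

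**Figure D2:**
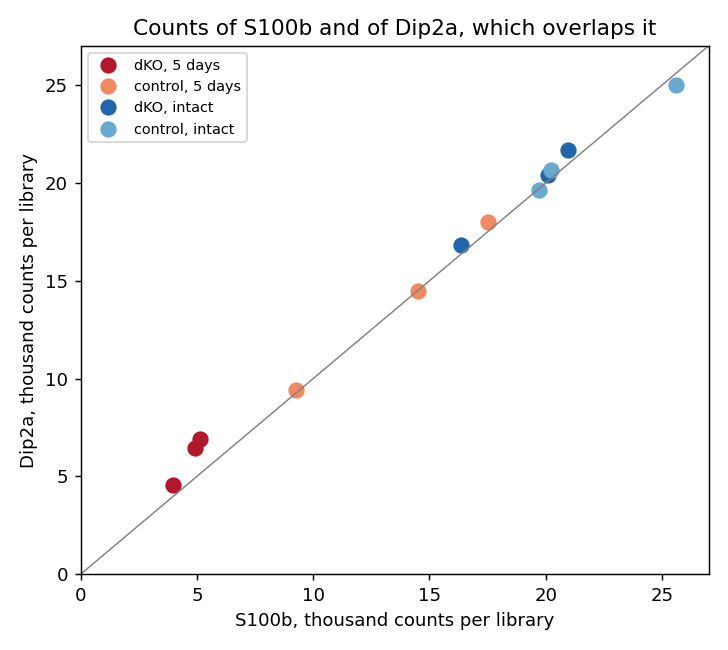
Counts of S100b (horizontal axis, in units of 1000) and of Dip2a (vertical axis, same unit) in the 12 libraries, coloured by group. The libraries of 3 groups lie close to equality (97.73 to 103.5%), and the 3 dKO libraries at 5 days lie above it (115.2 to 135.1%).

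Scn7a encodes a sodium channel of glia and other cells that responds to extracellular sodium, and lies at chr2:66673425-66784914 (-). It had 54.9, 55.9 and 50.6 CPM in dKO nerve at 5 days, against 351, 340.2 and 359.8 CPM in intact dKO nerve. Control nerve had 37.5, 36.2 and 39.2 CPM at 5 days, against 325, 549.7 and 277 CPM in intact nerve. It showed the largest fall of the 9 genes in both genotypes, and no injured library came near an intact one. The log2 change was -2.70 ± 0.20 in dKO nerve (edgeR adjusted p = 1.39e-07) and -3.35 ± 0.20 in control nerve (edgeR adjusted p = 1.42e-08), a level 10.2-fold higher in intact than in injured control nerve. All 3 dKO libraries at 5 days lay above the 3 control libraries, with a log2 difference of 0.52 ± 0.19 (edgeR adjusted p = 0.0939). It was called without intact control replicate 2 (0.55, edgeR adjusted p = 0.00125) and in a fit of the compared groups alone (0.54, edgeR adjusted p = 0.0116).

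**Figure D3:**
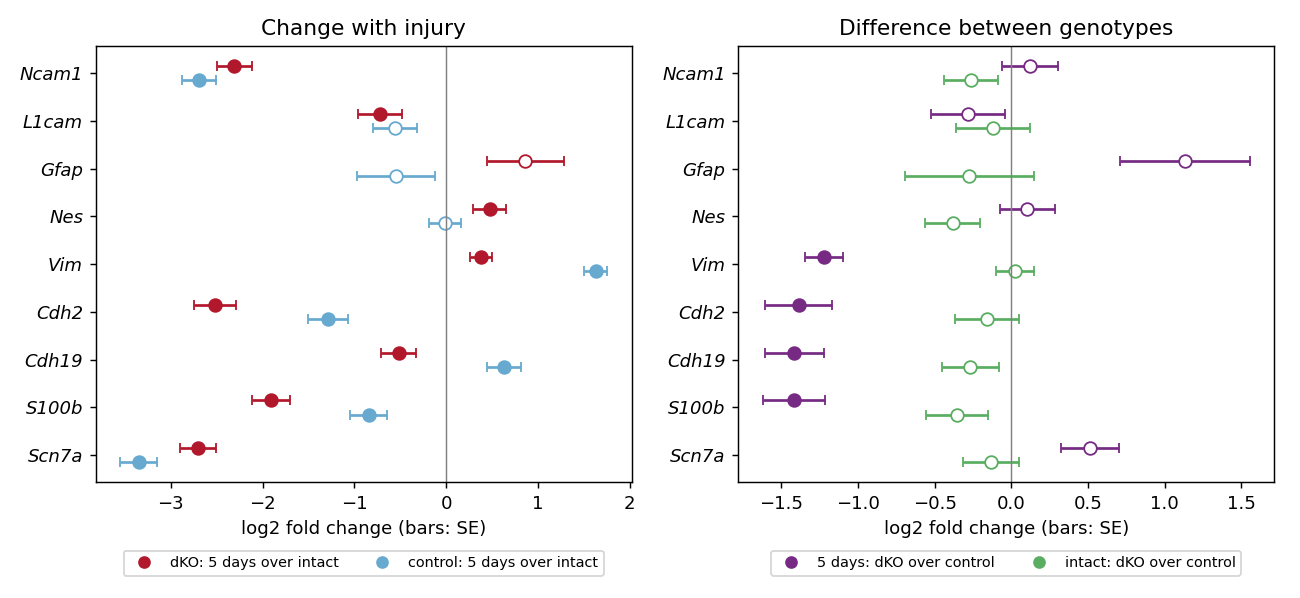
Log2 fold change (horizontal axes, bars SE) of each gene with injury in dKO and in control nerve (left) and between dKO and control nerve at 5 days and in intact nerve (right); filled dots passed the test. At 5 days Vim, Cdh2, Cdh19 and S100b lie between -1.22 and -1.42, while in intact nerve no dot is filled.

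Whether injury changed a gene differently in the 2 genotypes was tested as the interaction of injury and genotype, where 2.9% of all gene models were called (0.737% with a positive and 2.17% with a negative value). Of the 9 genes, 3 were called, all with a negative value. The change in dKO nerve minus that in control nerve was -1.25 ± 0.17 for Vim (edgeR adjusted p = 0.00124). It was -1.23 ± 0.30 for Cdh2 (edgeR adjusted p = 0.0498) and -1.15 ± 0.26 for Cdh19 (edgeR adjusted p = 0.0322). Vim kept its call without any 1 library. Cdh2 and Cdh19 lost theirs without any 1 library other than intact control replicate 2 or control replicate 4 at 5 days, with edgeR adjusted p of 0.0811 to 0.154 for Cdh2 and 0.0574 to 0.0991 for Cdh19. Both also lost it with RLE factors, with upper-quartile factors, with the authors' normalized values and with the library set term, while Vim kept its call in each of these. S100b had -1.06 ± 0.28 (edgeR adjusted p = 0.0667), and was called without intact control replicate 2 (-1.25), control replicate 4 at 5 days (-1.19) or dKO replicate 4 at 5 days (-1.32). Gfap had 1.41 ± 0.59 (edgeR adjusted p = 0.267; called at 2.11 without intact dKO replicate 2). For Scn7a the value was 0.65 ± 0.26, for Nes 0.49 ± 0.25, for Ncam1 0.39 ± 0.25 and for L1cam -0.16 ± 0.34, and none of these passed the test.

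The library sets do not cut across the genotypes evenly, since only 1 control library at 5 days shares the second set with the 3 dKO libraries. That lone control library has no spread of its own, so a p within the set takes its spread from the other 3 groups and rests on the assumption that it varies as they do. The log2 difference between dKO and control nerve within the set was -1.05 for Vim (edgeR adjusted p = 0.00261) and -1.16 for Cdh19 (edgeR adjusted p = 0.0273). It was -1.07 for Cdh2 (edgeR adjusted p = 0.131) and -1.14 for S100b (edgeR adjusted p = 0.0610). A library set term over all 12 libraries takes the set effect from the control libraries at 5 days, the only group with both sets. Its log2 difference therefore rests on the same lone control library and is no separate check. It was -1.05 for Vim, -1.15 for Cdh19, -1.14 for S100b and -1.07 for Cdh2.

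**Figure D4:**
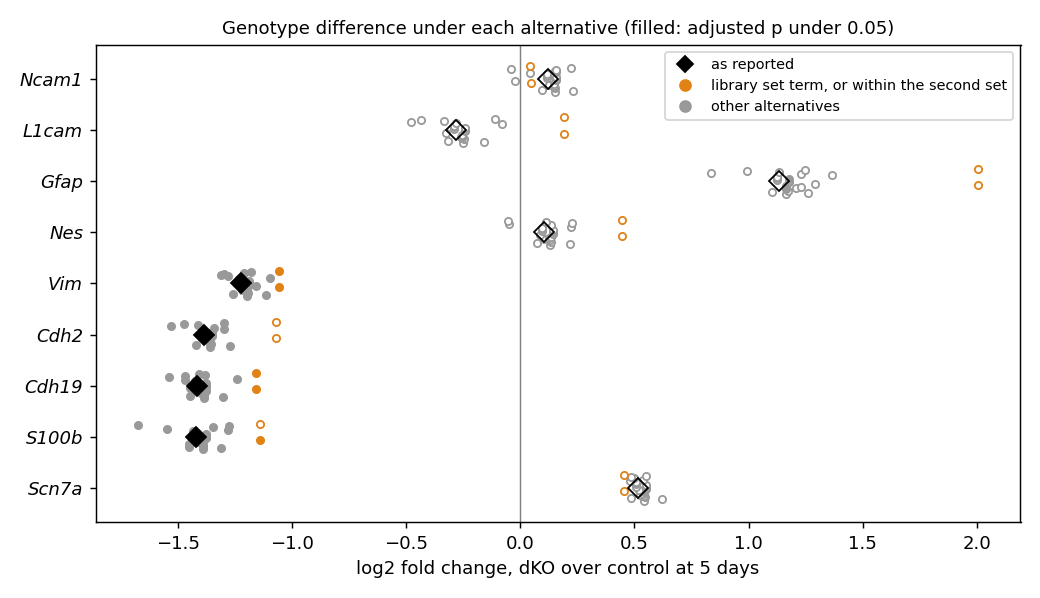
Log2 difference between dKO and control nerve at 5 days (horizontal axis) of the 9 genes under every alternative processing; diamonds are the values reported and filled symbols passed the test. Vim and Cdh19 stay filled and below 0 throughout, and L1cam, Nes and Ncam1 lie around 0.

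Marker sums of other states and cells moved with the genotype at 5 days. Myelinating Schwann cell markers summed to 1863 to 2297 CPM in dKO nerve and to 655 to 786 CPM in control nerve, and 7 of the 8 genes were higher in dKO nerve. Dividing-cell markers summed to 193 to 235 CPM in dKO nerve and to 540.4 to 669 CPM in control nerve, and all 5 genes were lower in dKO nerve. Macrophage markers overlapped, at 389 to 534 CPM in dKO nerve and 366 to 574 CPM in control nerve. The neuron marker sum was 182 to 210.3 CPM in dKO nerve and 288 to 427 CPM in control nerve. Of its 5 genes only Uchl1 was called lower in dKO nerve, and the median log2 difference of the 5 was 0.64. The part of these differences in the values of the 9 genes was not tested.

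Sox10, a transcription factor of all Schwann cells, averaged 182 ± 32.7 CPM in dKO nerve and 301 ± 84.5 CPM in control nerve at 5 days (SD, n = 3 each). Set over Sox10 in the same library, 2 of the 4 genes lower in dKO nerve kept groups apart. Cdh2 was 0.102 to 0.121 of Sox10 in dKO nerve and 0.153 to 0.196 in control nerve, and Vim was 11.98 to 15.5 times Sox10 in dKO nerve and 16.9 to 22.4 times in control nerve. Cdh19 and S100b overlapped on that scale. Gfap over Sox10 was 0.0555 to 0.0685 in dKO nerve and 0.0127 to 0.0203 in control nerve, L1cam over Sox10 was 0.408 to 0.491 in dKO nerve and 0.316 to 0.341 in control nerve, and Scn7a over Sox10 was 0.269 to 0.352 in dKO nerve and 0.0961 to 0.176 in control nerve. Nes was 4.08 to 8.51 times Sox10 in dKO nerve and 2.83 to 3.43 times in control nerve, and Ncam1 over Sox10 was 0.111 to 0.147 in dKO nerve and 0.0503 to 0.104 in control nerve. On this scale these 5 genes were thus higher in each dKO library than in each control library. The share of all gene models that stand apart on this scale was not computed. A gene of equal CPM is also higher on it where Sox10 is lower. In CPM, L1cam, Nes and Ncam1 overlapped between the genotypes at 5 days. These ratios are descriptions without a test, and Sox10 itself was lower in dKO nerve at 5 days (log2 difference -0.73).

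**Figure D5:**
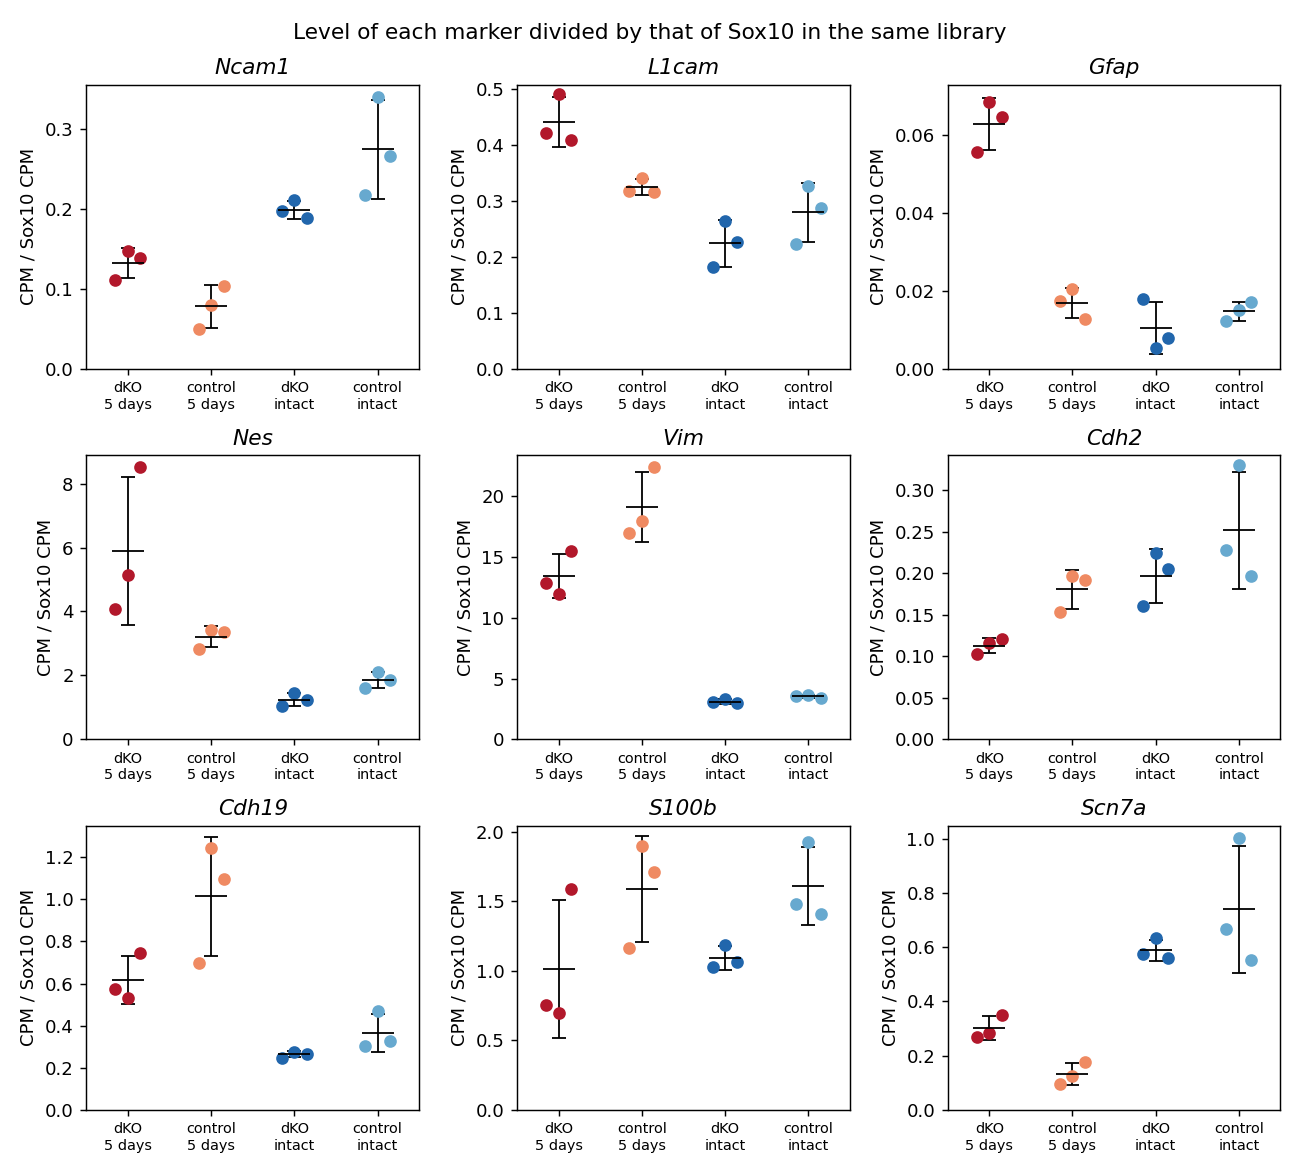
CPM of each gene divided by the CPM of Sox10 in the same library (vertical axes, from 0), with both groups at 5 days left of the intact groups; dots are libraries and bars the mean and SD (n = 3). Gfap over Sox10 is highest in dKO nerve at 5 days (0.0555 to 0.0685), and the Cdh19 and S100b groups at 5 days overlap.

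The region before the start of a gene was taken from RefSeq (GRCm38.p6) for 6 of the 9 genes, Gfap, L1cam, Nes, S100b, Scn7a and Vim. Regions of the other members were not searched, and nothing is said of their motifs. Those of S100b and Vim, both lower in dKO nerve at 5 days, are shown for the 250 bases before the RefSeq start, at chr10:76253586-76253835 (+) for S100b and chr2:13574061-13574310 (+) for Vim, with capitals at CCAAT boxes, on either strand, and at the TATA box.
S100b: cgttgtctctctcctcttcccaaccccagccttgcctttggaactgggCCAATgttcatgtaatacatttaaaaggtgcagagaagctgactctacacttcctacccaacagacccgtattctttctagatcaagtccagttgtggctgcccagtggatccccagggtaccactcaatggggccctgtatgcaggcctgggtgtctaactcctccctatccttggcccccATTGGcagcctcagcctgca
Vim: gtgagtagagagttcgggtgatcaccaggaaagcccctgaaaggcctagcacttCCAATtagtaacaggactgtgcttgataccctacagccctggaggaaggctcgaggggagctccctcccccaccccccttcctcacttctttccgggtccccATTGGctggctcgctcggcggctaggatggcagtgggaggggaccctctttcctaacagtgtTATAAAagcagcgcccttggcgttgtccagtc
Both strands were searched for CACGTG, the core of the element through which TFEB and TFE3 bind at lysosomal genes, for TGANTCA (AP-1), for ACAAAG, a core bound by SOX factors, for the CCAAT box, spelled by its name, and for the TATA box, spelled TATAAA. S100b held 2 matches of the CCAAT box, Vim held 2 and 1 of the TATA box, and L1cam held 1 of the CCAAT box at one of its starts. Of all 32851 windows of that length, 33.8% held the CCAAT box and 12.4% the TATA box. The TFEB and TFE3 core was in 6.02% of all windows, that of AP-1 in 6.75% and that of SOX factors in 16.5%, and none of these stood in a window of the 6 genes.

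Per length of exon, in CPM per kilobase (RPKM), the order of the genes changed with injury. In dKO nerve at 5 days Vim led with 506 ± 43.3 RPKM (SD, n = 3), followed by Nes (159 ± 30.6) and S100b (117 ± 32.9), which overlapped each other. Control nerve at 5 days had Vim first (1183 RPKM), then S100b (311) and Nes (148). In both intact groups S100b was first, with 437 RPKM in dKO and 559 RPKM in control nerve, and Vim second. The lowest levels per length overlapped in part: Ncam1, Gfap and Cdh2 did not separate in dKO nerve at 5 days (2.75, 2.69 and 2.52 RPKM), whereas Gfap stood alone as the lowest in control nerve at 5 days (1.22 RPKM).

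In intact nerve, where 0.00447% of all gene models were called (1 model, and 1299 at an unadjusted p under 0.05), no member passed the test. For 2 genes the groups did not overlap: Nes had 645 to 783 CPM in dKO and 787 to 1158 CPM in control libraries, and S100b had 625 to 682 CPM in dKO and 709.6 to 1057 CPM in control libraries. Among all models, 14.6% did not overlap. The log2 differences of the 9 genes lay between -0.38 for Nes and 0.02 for Vim, with edgeR adjusted p of 0.856 to 0.987.

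Genes around the 9 were taken from lists chosen by function. Of all models, 22% rose and 22.6% fell after injury in dKO nerve, and 24.4% rose and 22.4% fell in control nerve. At 5 days 3.12% were higher and 8.97% lower in dKO nerve. Of 15 other immature or non-myelinating markers, 8 rose and 4 fell in dKO nerve after injury and 9 rose and 1 fell in control nerve. At 5 days 6 were lower in dKO nerve (Ngfr, Sox2, Notch1, Fabp7, Jun and Tfap2a) and none was higher. Ngfr, the low-affinity neurotrophin receptor of immature and repair cells, averaged 514 ± 62.7 CPM in dKO nerve and 1635 ± 298 CPM in control nerve at 5 days (log2 difference -1.67), with log2 rises after injury of 3.27 in dKO nerve and 4.41 in control nerve. Sox2, a transcription factor of immature glia, differed by -1.26 on the log2 scale at 5 days. The list median at 5 days was -0.56, against -0.02 over all models.

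Of 13 partners of NCAM1 and L1, Nrcam (log2 difference -1.37) and Gfra1 (-0.98) were lower in dKO nerve at 5 days and none was higher, and both also differed in their injury change. Nfasc, the neurofascin of nodes and myelin edges, fell with injury by a log2 change of -3.02 in dKO nerve and -3.27 in control nerve, and St8sia2, which puts polysialic acid on NCAM, rose by a log2 change of 2.50 in dKO nerve and 1.66 in control nerve. Of 17 cadherin and catenin genes, Cdh1, Cdh3 and Ctnnd2 were higher and Cdh10 was lower in dKO nerve at 5 days. Cdh1, the E-cadherin of myelinating Schwann cells, fell with injury by a log2 change of -2.95 in dKO nerve and -6.19 in control nerve, and its interaction value was 3.25 (edgeR adjusted p = 1.38e-05), opposite in sign to those of Cdh2 and Cdh19.

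Of 14 other intermediate filament genes tested, Lmnb1 (log2 difference -0.70), Lmnb2 (-0.83) and Lmna were lower in dKO nerve at 5 days and none was higher, and the neurofilament gene Nefm fell with injury by a log2 change of -3.67 in dKO nerve and -3.74 in control nerve. Of 11 tested genes of other S100 proteins and their receptor Ager, 5 rose and none fell in dKO nerve and 7 rose and 1 fell in control nerve, whereas S100b fell in both. S100a4 rose by a log2 change of 1.51 in dKO nerve and 1.89 in control nerve. At 5 days Ager was higher and S100a10 was lower in dKO nerve. Of 14 other sodium channel genes, 4 rose and 2 fell in dKO nerve, where 44.7% of all models were called in either direction. In control nerve 2 rose and 4 fell, where 46.8% of all models were called. Scn4b (log2 difference 0.74) was higher in dKO nerve at 5 days. Scn3b fell by a log2 change of -2.82 in dKO nerve and -3.10 in control nerve, where Scn7a had -2.70 in dKO nerve and -3.35 in control nerve.

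The genes whose log2 CPM over the 12 libraries lay closest to each of the 9, by the root mean square difference after centring, came from 10850 candidates. Cdh19 had the closest, Adamts5, at 0.11, followed by Scarb2 (0.17). Vim lay near Mid2 and Vat1 (0.13 each), Nes near Zeb2 (0.13), L1cam near Trappc8 (0.16), Ncam1 near Mpdz (0.17), Scn7a near Radil (0.19) and Cdh2 near B3gnt5 (0.19). S100b was closest to its overlapping gene Dip2a (0.15). Gfap had no close neighbour, its nearest being Prss57 at 0.42.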

How the data were processed

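Bulk RNA was measured in 12 sciatic nerve libraries, 3 per group. The authors deposited raw counts per gene model as whole numbers, and a normalized signal; within a library, the ratio of both deposited tables was constant to 0.124%, as after division by a size factor. Per the submitters' processing notes, DESeq2 and R 4.2.1 were used with mm10. Aligner, counter, strand setting and annotation were not given in the sources used here. Each count test was edgeR 4.0.16 (R 4.3.3): filterByExpr over the 4 groups with a minimum count of 10 left 22384 models, scaled by TMM. Robust quasi-likelihood fits of 1 mean per group over all 12 libraries gave F-tests, with Benjamini-Hochberg adjustment over all tested models and a threshold of 0.05. The p-values rest on the spread between replicates within groups, pooled over the 4 groups of 3 libraries and drawn towards that of other genes. CPM used TMM library sizes, and RPKM the exon union length of GENCODE M21 (GRCm38). The test was checked on simulated counts. Alternatives were RLE and upper-quartile factors, other filters, DESeq2 1.42.0, limma 3.58.1 (voom, and trend on log2 of the deposited normalized values plus 1), only the compared groups, a library set term, the replicate number as a block, leaving out each library, and, chosen after seeing the data, the second library set alone.

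The 9 genes, the lists around them and the library sets were chosen with earlier results of these data known. All 9 are named whatever their result; of each list, the genes named are those with the smallest p among called ones, and those needed to account for small counts. One called gene of a list is not reported here.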

Additional observations from a re-analysis of the deposited data

Results flagged for a closer look

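The change between 5 days and intact nerve differed between the 2 genotypes for 3 of the 9 genes by edgeR's test of the interaction. The change in dKO nerve minus the change in control nerve was -1.25 for Vim, -1.23 for Cdh2 and -1.15 for Cdh19 on the log2 scale. For Vim both changes were rises and the one in dKO nerve was smaller, for Cdh2 both were falls and the one in dKO nerve was larger, and for Cdh19 the signs differed. Vim was called in all 21 alternatives run for the interaction, Cdh19 in 7 and Cdh2 in 3. With the library set term the values were -1.08 for Vim (edgeR adjusted p = 0.0250), -0.91 for Cdh2 (edgeR adjusted p = 0.421) and -0.89 for Cdh19 (edgeR adjusted p = 0.333). The part of dividing cells and other marker sums in these values was not tested.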

How the results depend on the processing

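Of 23 alternatives, 22 were run for intact nerve, and none of these gave a call among the 9 genes there. Vim and Cdh19 were called lower in dKO nerve at 5 days in all 23. The count of members called after injury in dKO nerve, 8 as reported, was 5 with the library set term and 4 to 8 on leaving out 1 library. In control nerve leaving out 1 library gave 5 to 7 and at 5 days between genotypes 4 to 5. With replicate 4 as the only control library at 5 days, the log2 differences were -1.05 for Vim, -1.07 for Cdh2, -1.16 for Cdh19 and -1.14 for S100b. Those reported were -1.22, -1.39, -1.41 and -1.42. For the interaction, 3 as reported, the count was 1 with RLE factors, 1 with upper-quartile factors, 1 with the authors' normalized values, 1 with the library set term, and 1 to 4 on leaving out 1 library. Of 989 single-gene values under the alternatives, 884 kept direction and call, 69 lost the call, 16 gained one and 20 changed sign; DESeq2 gave no adjusted p for Gfap in intact nerve. Values that changed sign were all uncalled. They were Nes after injury in control nerve (0.13 with the library set term, -0.23 to 0.13 on leaving out 1 library), L1cam at 5 days (0.19 with the set term and 0.19 within the second set), and L1cam for the interaction (0.31 with the set term, -0.36 to 0.064 on leaving out 1 library). On leaving out 1 library, Ncam1 at 5 days ranged from -0.040 to 0.22 and Nes from -0.054 to 0.23. In intact nerve the ranges were -0.033 to 0.12 for Vim, -0.31 to 0.083 for L1cam, -0.32 to 0.17 for Cdh2, -0.44 to 0.030 for Cdh19, -0.32 to 0.23 for Scn7a and -0.94 to 0.081 for Gfap. The cause was not tested. Upper-quartile factors moved the median of all models by 0.14 after injury in dKO nerve, 0.11 at 5 days and 0.13 for the interaction; called models at 5 days were then 1075 higher and 1345 lower, against 699 higher and 2008 lower with TMM, and after injury in dKO nerve 6246 higher and 4044 lower, against 4930 and 5067. For the interaction they were 224 positive and 296 negative, against 165 and 485. Replicate numbers did not pair the libraries (same-number r -0.213 to 0.118 over 13 pairs, 3 of 12 libraries closest to their own number); with the replicate block 7 members were called after injury in dKO nerve, 6 in control nerve, 4 at 5 days and 2 for the interaction, and Ncam1 at 5 days was -0.024. Gfap, at 69 to 484 counts, was the gene most limited by depth.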
